A study of Mus musculus with 4 samples.

Results

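The genes described here are 45 mouse genes of DNA replication and deoxynucleotide supply, and they were listed by name, from the origin recognition complex to the S phase cyclins. A member was measured where an array probe carried its symbol alone, and for a gene with several such probes the brightest on average was used. That gave values for 43 of the 45 members, out of 22180 genes tested. Rfc4 and Ccne2 had probes only in common with another gene and were not measured. RNA came from the melanoma line B16-OVA, which was derived from mouse B16 cells and expresses ovalbumin as a model antigen. There were 2 groups of 2 arrays each, both grown in the same serum-containing medium. One group is labelled as mock transfected and the other as transfected with AT90ES. The treatment text names a double-stranded DNA of 90 bases, given with Lipofectamine 2000, and a duration of 6 hours. The treatment text is the same for all 4 arrays, so it does not say whether the mock cells received the lipid alone. All 4 arrays share the cell line, and the labels do not say whether the 2 arrays of a group came from separate cultures, so the spread behind every p-value is that of these 4 arrays and may be technical.

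Replication starts in 2 steps that the cell keeps apart. In G1 the origin recognition complex, with Cdc6 and Cdt1, loads the MCM helicase onto DNA as an inactive ring, which is called licensing. In S phase Mcm10, Cdc45 and the GINS complex turn the ring into the active helicase, DNA polymerases and their clamp copy the strands, and ribonucleotide reductase, thymidylate synthase and thymidine kinase keep up the supply of deoxynucleotides. Many of these genes are transcribed at the G1 to S boundary under E2F factors, which the retinoblastoma protein holds back until cyclin-dependent kinases release them.

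Promoter sequences are shown because E2F control is known for many genes of the list. The 6 members shown were picked by hand with their differences known. Sequences were taken from RefSeq, build GRCm38.p6, and 36 of the 45 members had an entry. In the 250 bases before the annotated start, the E2F letters TTTCCCGC, TTTGGCGC, TTTCGCGC and TTTGCCGC were searched on both strands, where matches may overlap. At least 1 match stood in 9 of the 36 members (25%), against 2.16% of the 27025 genes with an entry. The 9 were Orc1, Orc3, Cdc6, Mcm5, Mcm6, Mcm7, Gins3, Pola1 and Rfc3, so 4 of the 7 helicase loading genes with an entry held a match. CCAAT, the letters bound by NF-Y and searched in the same way, stood in 20 of the 36 members and in 37.5% of all genes. Each sequence below runs 5′ to 3′ on the gene's own strand and ends at the base before the start, with E2F matches in capitals. Cdc6, Orc1, Mcm5 and Mcm6 hold matches and had lower levels in AT90ES cells, Orc3 holds a match and did not have a lower level, and Tk1 had a lower level with no match in this window.
Cdc6, chr11:98907901-98908150, plus strand: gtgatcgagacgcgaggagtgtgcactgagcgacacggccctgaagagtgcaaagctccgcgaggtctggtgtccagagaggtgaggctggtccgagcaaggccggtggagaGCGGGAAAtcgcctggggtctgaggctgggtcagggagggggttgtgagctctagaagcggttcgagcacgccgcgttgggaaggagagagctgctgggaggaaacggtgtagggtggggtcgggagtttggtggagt
Orc1, chr4:108579204-108579453, plus strand: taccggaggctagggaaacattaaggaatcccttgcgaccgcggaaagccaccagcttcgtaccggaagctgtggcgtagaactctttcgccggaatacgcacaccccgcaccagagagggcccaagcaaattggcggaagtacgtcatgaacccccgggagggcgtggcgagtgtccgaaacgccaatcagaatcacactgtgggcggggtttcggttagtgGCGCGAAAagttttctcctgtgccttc
Mcm5, chr8:75109259-75109508, plus strand: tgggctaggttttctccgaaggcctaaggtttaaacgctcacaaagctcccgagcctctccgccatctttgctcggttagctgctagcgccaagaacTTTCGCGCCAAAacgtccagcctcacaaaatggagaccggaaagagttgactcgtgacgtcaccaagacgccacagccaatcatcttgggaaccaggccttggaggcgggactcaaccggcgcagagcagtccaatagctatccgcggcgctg
Mcm6, chr1:128359706-128359955, minus strand: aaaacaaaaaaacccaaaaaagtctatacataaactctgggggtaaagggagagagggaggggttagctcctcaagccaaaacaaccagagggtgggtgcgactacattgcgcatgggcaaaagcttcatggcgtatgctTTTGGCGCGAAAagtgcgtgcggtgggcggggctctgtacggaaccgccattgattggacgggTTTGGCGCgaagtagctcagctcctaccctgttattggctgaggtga
Orc3, chr4:34614943-34615192, minus strand: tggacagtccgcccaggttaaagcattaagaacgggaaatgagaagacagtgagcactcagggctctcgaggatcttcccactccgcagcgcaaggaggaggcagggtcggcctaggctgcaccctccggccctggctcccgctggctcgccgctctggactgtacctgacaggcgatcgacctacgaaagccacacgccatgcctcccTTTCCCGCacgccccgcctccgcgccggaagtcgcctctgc
Tk1, chr11:117826015-117826264, minus strand: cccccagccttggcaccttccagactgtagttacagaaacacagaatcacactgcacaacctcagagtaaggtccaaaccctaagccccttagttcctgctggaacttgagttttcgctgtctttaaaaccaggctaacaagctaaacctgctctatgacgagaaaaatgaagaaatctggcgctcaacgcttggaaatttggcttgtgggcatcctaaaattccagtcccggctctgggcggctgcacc

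The match in Cdc6 began 138 bases before the start, the match in Orc1 27 bases and that in Orc3 41 bases. Mcm5 held 2 overlapping matches, and Mcm6 held 3, of which the first pair overlapped. Among the 35 measured members with an entry, the 9 with a match had a median log2 difference (AT90ES minus mock) of -0.37, within a range of -0.69 to 0.14. The 26 without a match had a median of -0.27, within a range of -0.51 to 0.16. The ranges overlapped, and the difference between these sets was not tested. Mcm4, Gins1, Gins2, Gins4, Prim2, Pole, Rfc2, Exo1 and Ccne2 had no entry and are in neither set. Among them was Exo1, whose difference of -0.73 was the lowest of all measured members. A match is a description of letters and not a measured binding site.

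The values were log2 probe levels, between which a difference of 1 is a doubling. Across the 22180 genes the arrays of a group correlated at Pearson's r of 0.992 and 0.993, where genes are not independent replicates. As a check of the treatment, 5 genes of the response to foreign nucleic acid (Ccl5, Ifit1, Ifih1, Cxcl10 and Isg15) all rose, by 4.16 to 6.32. Cxcl10, a chemokine gene, stood at a log2 level of 6.78 and 6.91 in mock cells and at 11.94 and 11.98 in AT90ES cells, with an adjusted p of 0.00017 in limma. All 8 melanocyte markers checked lay above the background on every array, among them Tyrp1, Dct and Pmel. Mitf, the melanocyte transcription factor, named after its values were seen, stood lower in AT90ES cells, by a log2 difference of -0.34 ± 0.11 (adjusted p of 0.469 in limma, and 0.0048 with an intensity trend in the spread). Background was taken as the 95th percentile of 1105 olfactory receptor genes, 4.85 to 5.07 over the arrays. Markers of other cells passed it on all arrays for 4 of 8 myeloid genes, 1 of 7 genes of lymphocytes, and 3 of 8 genes of fibroblasts or endothelium. Their mean log2 levels per array were 5.11 to 5.14 (myeloid), 4.65 to 4.68 (lymphocyte) and 5.16 to 5.21 (fibroblast and endothelial) in mock cells. In AT90ES cells they were 4.96 to 5.14, 4.63 to 4.65 and 5.10 to 5.25.

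The replication genes were all measured clearly above that background, since each of the 43 members passed it on all 4 arrays. Of the 43, 40 had a lower mean in AT90ES than in mock cells and 3 had a higher one, Orc3, Orc4 and Orc5. A lower mean was found in 54.6% of all genes tested and in 51.3% of those above background. Over the alternatives 38 to 41 members had a lower mean. The median log2 difference of the members was -0.26, and it was -0.02 over all genes and -0.01 over the 12996 genes whose mean passed the background. The differences were small for single genes, and only Exo1 and Cdc6 were at least 1.5-fold lower. In limma, which tested all genes with no covariate, 0 of 43 members passed an adjusted p of 0.05 in either direction, against 0% of all genes lower and 0.415% higher. The lowest adjusted p of any member was 0.166, that of Cdc6. At an unadjusted p under 0.05, 13 members were lower and 0 higher, against 4.59% of all genes lower and 4.5% higher, and 4.11% lower among genes above background. This count depended on the setting and lay between 4 and 30 over the alternatives, at 4 without mock replicate 2 and also without AT90ES replicate 2, at 8 without mock replicate 1 and without AT90ES replicate 1, and at 6 with arrays centred on their median gene. With an intensity trend in the spread, which lets limma assign brighter probes a smaller error, 9 members passed as lower and 0 as higher, against 0.73% and 1.94% of all genes. In bulk RNA fewer cells in S phase and less of these RNAs per cell cannot be told apart.

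Without a test, the arrays can be read gene by gene. For 35 of the 43 members both AT90ES arrays lay under both mock arrays, against 22.1% of all genes and 22.4% of genes above the background. For 2 members, Orc3 and Orc5, both AT90ES arrays lay over both mock arrays, against 17.7% of all genes. The groups overlapped for the other 6 members, Orc2, Orc4, Gins2, Prim2, Pcna and Rrm2. For 20 members the distance down from the mock to the AT90ES arrays was wider than the gap between the arrays of either group, against 7.28% of all genes.

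**Figure D1:**
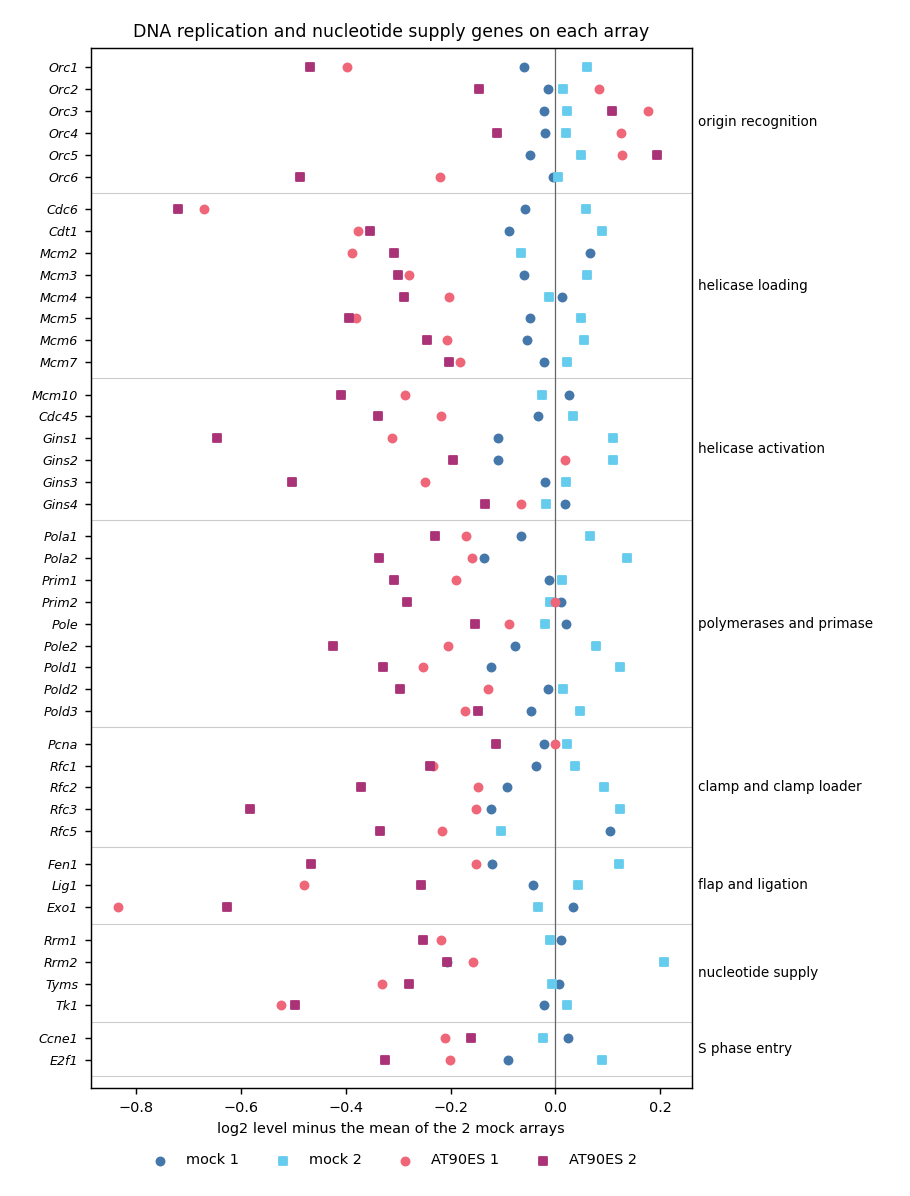
Log2 level of each of the 43 measured genes on each array, minus the mean of the 2 mock arrays (x axis), by role in replication (right). Both AT90ES arrays lie left of both mock arrays for 35 genes, a separation found in 22.1% of all genes tested. Orc3 and Orc5 are the pair with both AT90ES arrays to the right.

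**Figure D2:**
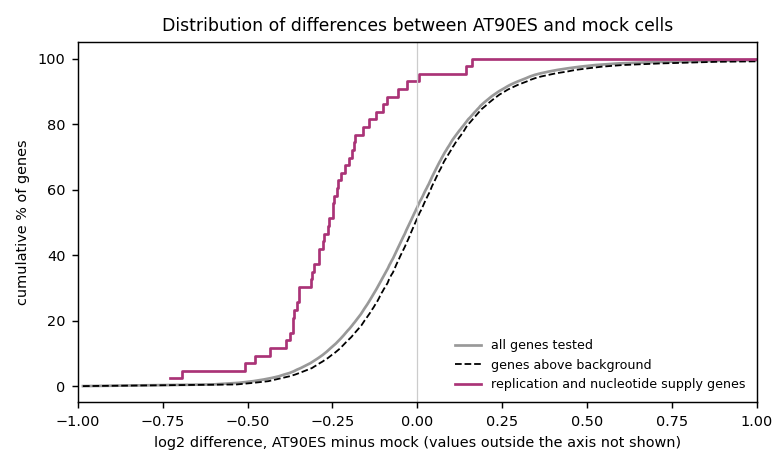
Cumulative share of genes (y axis, %) by log2 difference, AT90ES minus mock (x axis), for the 43 replication and nucleotide supply genes, all 22180 genes tested and the 12996 genes above background. The curve of the replication genes is displaced to the left, with a median of -0.26 against -0.02 for all genes.

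The subunits of the origin recognition complex, which marks origins by binding DNA, did not all run the same way. Differences between them were not tested. Orc1 and Orc6 stood lower in AT90ES cells, while Orc2 and Orc4 overlapped between the groups, and Orc3 and Orc5 stood slightly higher. Thus 33.3% of the subunits lay lower and 33.3% higher on both AT90ES arrays, against 22.1% and 17.7% of all genes. Of the 6 subunits, 0 passed in limma. Orc1, the large subunit that is made and degraded with the cell cycle, had log2 levels of 6.13 and 6.25 in mock cells and 5.79 and 5.72 in AT90ES cells. Both AT90ES arrays were lower, and the difference of -0.43 ± 0.12 (SE) had an adjusted p of 0.397 in limma. Orc6, the smallest subunit, had 8.96 and 8.96 in mock and 8.74 and 8.47 in AT90ES cells. Its AT90ES arrays lay 0.27 apart, with replicate 2 the lower, and its difference was -0.35 ± 0.14 (adjusted p of 0.538 in limma). Orc2 stood at 9.01 and 9.04 in mock and 9.11 and 8.88 in AT90ES cells, and Orc4 at 8.37 and 8.41 against 8.52 and 8.28. For both subunits 1 AT90ES array lay above the mock arrays and the other below, and the sign of the Orc4 mean, 0.0060, was reversed with arrays quantile normalized again (-0.02) or centred on the reference genes (-0.06), without mock replicate 1 (-0.01) and without AT90ES replicate 1 (-0.11). The difference for Orc2, -0.03, turned to 0.08 without AT90ES replicate 2. Orc3 and Orc5 are named with all values because theirs ran the other way, as was seen in the data. Orc3 had 8.26 and 8.30 in mock and 8.46 and 8.39 in AT90ES cells, a difference of 0.14 ± 0.12. Orc5 had 6.94 and 7.04 against 7.12 and 7.18, a difference of 0.16 ± 0.12. Neither passed (adjusted p of 0.767 and 0.746 in limma).

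The helicase loading class holds Cdc6, Cdt1 and the subunits of the loaded ring itself, Mcm2 to Mcm7. These genes were lower without exception among the 8 measured. For all 8 both AT90ES arrays lay under both mock arrays, against 22.1% of all genes. Their differences lay between -0.19 (Mcm7) and -0.69 (Cdc6) with a median of -0.32, though 0 passed in limma. Cdc6, the ATPase that recruits the helicase to the origin, had log2 levels of 8.21 and 8.33 in mock cells and 7.60 and 7.55 in AT90ES cells. The groups were 0.61 apart at their nearest arrays, several times the gap within either group. Its difference of -0.69 ± 0.12, a linear ratio of 0.618, had an adjusted p of 0.166 in limma. The adjusted p was 0.0017 with an intensity trend and 0.0476 with dim probes left out, which gave 1 lower and 0 higher members against 0.0462% and 1.23% of the genes tested, and it lay between 0.0017 and 0.619 over all alternatives. Cdt1, the partner of Cdc6 that geminin restrains, had 9.09 and 9.26 in mock and 8.80 and 8.82 in AT90ES cells. Its AT90ES arrays nearly coincided, and its difference was -0.36 ± 0.12 (adjusted p of 0.476 in limma).

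Of the 6 subunits of the MCM ring, Mcm5 and Mcm2 stood furthest from mock. Mcm5 had 9.67 and 9.77 in mock and 9.34 and 9.32 in AT90ES cells, a difference of -0.39 ± 0.12 (adjusted p of 0.436 in limma). Mcm2 had 10.41 and 10.28 in mock and 9.96 and 10.04 in AT90ES cells, a difference of -0.35 ± 0.12 (adjusted p of 0.488). In both genes the groups were further apart than their own replicates. Mcm3 had 9.88 and 9.99 against 9.66 and 9.63, and Mcm4 had 10.12 and 10.10 against 9.91 and 9.82. Their differences were -0.29 and -0.25. Mcm6 and Mcm7 had the smallest differences of the ring, -0.23 and -0.19. Each of these differences had an SE of 0.11 to 0.12, and differences between subunits were not tested. With an intensity trend Mcm2, Mcm3, Mcm5 and Cdt1 passed as lower beside Cdc6, with adjusted p-values of 0.009, 0.0358, 0.0077 and 0.0357 in limma, and none of the 4 passed in any other setting.

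**Figure D3:**
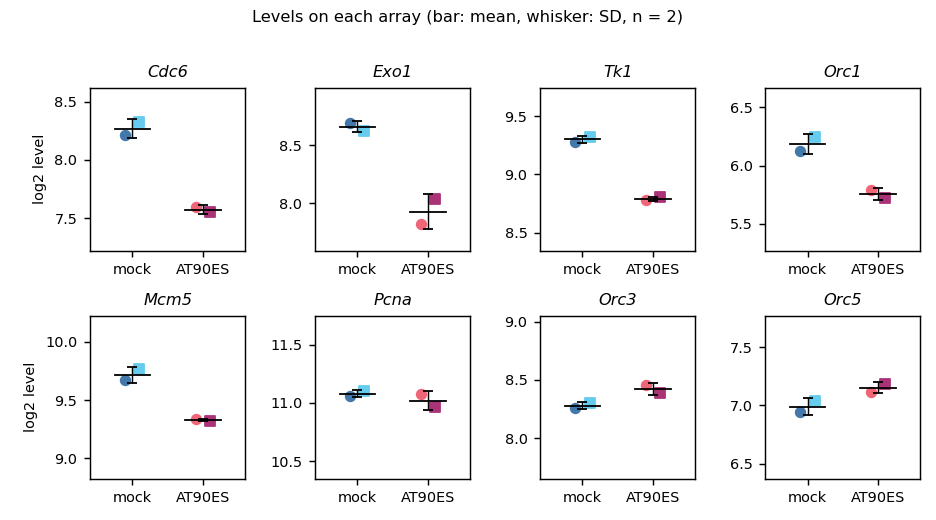
Log2 level (y axis, each panel spanning the same range) of 8 genes in mock (blue, circle replicate 1, square replicate 2) and AT90ES cells (red and purple), with mean and SD of the 2 arrays. Cdc6, Exo1, Tk1, Orc1 and Mcm5 are lower on both AT90ES arrays, Pcna overlaps, and Orc3 and Orc5 are slightly higher.

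Helicase activation genes were lower in mean for all 6 measured, and 0 passed in limma. For 5 of them both AT90ES arrays lay under both mock arrays, against 22.1% of all genes. Mcm10, which helps the loaded ring to open and start unwinding, had log2 levels of 9.09 and 9.04 in mock and 8.78 and 8.66 in AT90ES cells. Both AT90ES arrays were lower, by -0.35 ± 0.12 on average (adjusted p of 0.479 in limma, and 0.0419 with an intensity trend, with 0.0419 to 0.811 over the alternatives). Gins1 encodes a subunit of the GINS complex, which joins Cdc45 and the ring. It had 7.24 and 7.46 in mock and 7.04 and 6.71 in AT90ES cells, a difference of -0.48 ± 0.16 (adjusted p of 0.475). Its replicates lay wide apart in both groups, by 0.22 and 0.33. Gins3, of the same complex, had 7.93 and 7.97 against 7.70 and 7.45, a difference of -0.38 ± 0.14 (adjusted p of 0.502). The other subunits stood nearer to mock: Gins4 had 8.62 and 8.58 against 8.53 and 8.46, a difference of -0.10, and Gins2 overlapped with a difference of -0.09, which turned to 0.02 without mock replicate 2 and also without AT90ES replicate 2. Cdc45 had 7.74 and 7.80 against 7.55 and 7.43, a difference of -0.28 ± 0.12.

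The polymerases copy the strands behind the helicase, and differences between them and the other fork genes were not tested. All 9 genes of polymerase alpha with its primase, epsilon and delta had lower means, from -0.12 (Pole) to -0.31 (Pole2). For 8 of them both AT90ES arrays lay under both mock arrays, against 22.1% of all genes. A further probe of Pole was under the background on every array, and averaging it with the brighter one gave a difference of 0.03. In limma 0 of the 9 passed, and 0 had an unadjusted p under 0.05. Prim1, the catalytic subunit of primase, had log2 levels of 8.95 and 8.98 in mock and 8.78 and 8.66 in AT90ES cells, a difference of -0.25 ± 0.12 (adjusted p of 0.603). Prim2, its partner, had 9.14 and 9.12 against 9.13 and 8.85. AT90ES replicate 1 of Prim2 lay within the mock values and replicate 2 under them. For polymerase delta, Pold1, Pold2 and Pold3 had differences of -0.29, -0.21 and -0.16. For polymerase alpha, Pola1 and Pola2 had -0.20 and -0.25.

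Pcna, the sliding clamp that holds polymerases on DNA, differed little between the groups. Its log2 levels were 11.06 and 11.10 in mock and 11.08 and 10.96 in AT90ES cells. The groups overlapped, and the difference of -0.06 ± 0.12 (adjusted p of 0.926 in limma) was the smallest of the 17 measured fork genes in size. Pole was near it at -0.12 ± 0.12, and differences between genes were not tested. The 4 measured genes of the clamp loader, replication factor C, had lower means from -0.24 (Rfc1) to -0.37 (Rfc3). None overlapped, where 22.1% of all genes had both AT90ES arrays under both mock arrays. Rfc1, the large subunit, had 8.71 and 8.78 in mock and 8.51 and 8.50 in AT90ES cells. Rfc3 is shown because of its spread, which was seen in the data and was the widest of any member in AT90ES cells, 7.35 and 6.92, against 7.38 and 7.63 in mock cells, so that its nearest arrays of different groups were only 0.03 apart.

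Exo1, a nuclease that trims DNA ends in mismatch repair and at forks, had the largest difference of all 43 members. Its log2 levels were 8.69 and 8.62 in mock cells and 7.82 and 8.03 in AT90ES cells. Both AT90ES arrays were lower, by more than the gap between them. The difference of -0.73 ± 0.13, a linear ratio of 0.603, had an adjusted p of 0.181 in limma, and of 0.001 with an intensity trend (0.001 to 0.681 over the alternatives). Lig1, the ligase that seals Okazaki fragments, had 8.10 and 8.19 in mock and 7.67 and 7.89 in AT90ES cells, a difference of -0.37 ± 0.13 (adjusted p of 0.503). Fen1, the flap nuclease that prepares those ends, had 7.30 and 7.54 against 7.27 and 6.96. AT90ES replicate 1 of Fen1 lay just under the mock arrays, and its mean difference was -0.31 ± 0.16. A dimmer probe of Fen1 had a difference of -0.0019.

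The 4 nucleotide supply genes all had lower means in AT90ES cells, led by Tk1. On the probe used for Rrm2 the direction rested on 1 mock array. Tk1, the S phase thymidine kinase, had log2 levels of 9.28 and 9.32 in mock and 8.78 and 8.80 in AT90ES cells. Its replicates agreed within 0.04 while the groups were 0.47 apart, and its difference was -0.51 ± 0.11, a linear ratio of 0.703. The adjusted p was 0.306 in limma and 0.002 with an intensity trend (0.002 to 0.742 over the alternatives). Tyms, which makes thymidylate and is the target of fluorouracil, had 8.04 and 8.03 in mock and 7.70 and 7.75 in AT90ES cells. Its arrays did not overlap, and its difference was -0.31 ± 0.11 (adjusted p of 0.515). Rrm1, the large subunit of ribonucleotide reductase, had 10.62 and 10.60 against 10.39 and 10.35, a difference of -0.23 ± 0.11. It passed only with an intensity trend (adjusted p of 0.0308 in limma, with 0.0308 to 0.911 over the alternatives). Rrm2, the subunit whose supply limits the enzyme, had 9.73 and 10.15 in mock and 9.78 and 9.73 in AT90ES cells. Mock replicate 2 of Rrm2 stood above the other 3 arrays, and no other member had so wide a gap between mock arrays. Its difference of -0.18 ± 0.17 (adjusted p of 0.801 in limma) turned to 0.03 without mock replicate 2. A dimmer probe of Rrm2 had 6.34 and 6.44 in mock and 5.95 and 6.22 in AT90ES cells, a difference of -0.30 with no overlap.

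At the entry to S phase, cyclin E1 and E2f1 had lower means with no overlap, and neither passed in limma. Such a separation downward was found in 22.1% of all genes. Ccne1, which activates Cdk2 at the G1 to S boundary, had log2 levels of 8.19 and 8.14 in mock and 7.95 and 7.999 in AT90ES cells, a difference of -0.19 ± 0.11 (adjusted p of 0.696). E2f1, an activator of replication genes, had 7.44 and 7.62 against 7.33 and 7.204, a difference of -0.26 ± 0.13 (adjusted p of 0.619). The probe that the annotation gives to both Ccne2 and Ints8 had 8.22 and 8.26 in mock and 7.64 and 7.58 in AT90ES cells, a difference of -0.63, and cannot be assigned to either gene. The probe of Rfc4 and Eif4a2 had a difference of -0.21.

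Whether licensing genes differ from fork and nucleotide genes was asked by averaging each class on each array. The answer was that the 14 licensing genes and the 21 measured fork and nucleotide genes stood lower by similar amounts. The mean log2 level of the licensing genes was 8.88 and 8.94 in mock cells and 8.71 and 8.64 in AT90ES cells, a difference of -0.23 ± 0.04 (SE over 2 arrays per group). That of the fork and nucleotide genes was 8.65 and 8.74 against 8.47 and 8.38, a difference of -0.27 ± 0.06. The gap between the classes was 0.22 and 0.19 in mock cells and 0.24 and 0.26 in AT90ES cells, a difference of 0.04 ± 0.02. These averages of listed genes are a description with no test, and 2 against 2 arrays cannot give an exact permutation p under 0.333.

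The larger contrast was inside licensing. The 8 genes of the loading class, most of them subunits of the MCM ring, had a class mean of 9.57 and 9.64 in mock cells. In AT90ES cells it was 9.27 and 9.25, a difference of -0.34 ± 0.03. The 6 origin recognition subunits had 7.94 and 8.001 against 7.95 and 7.82, a difference of -0.08 ± 0.07, and here AT90ES replicate 1 lay between the mock arrays. The distance from loading to recognition genes was 1.63 and 1.64 in mock and 1.31 and 1.43 in AT90ES cells, narrower by 0.26 ± 0.06 in the latter, a comparison added with the values in view. With the recognition subunits left out, licensing minus fork and nucleotide became -0.07 in place of 0.04, without Cdc6 it was 0.08, and without Exo1 on the fork side 0.02. Counting helicase activation genes with the fork left it at 0.04.

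**Figure D4:**
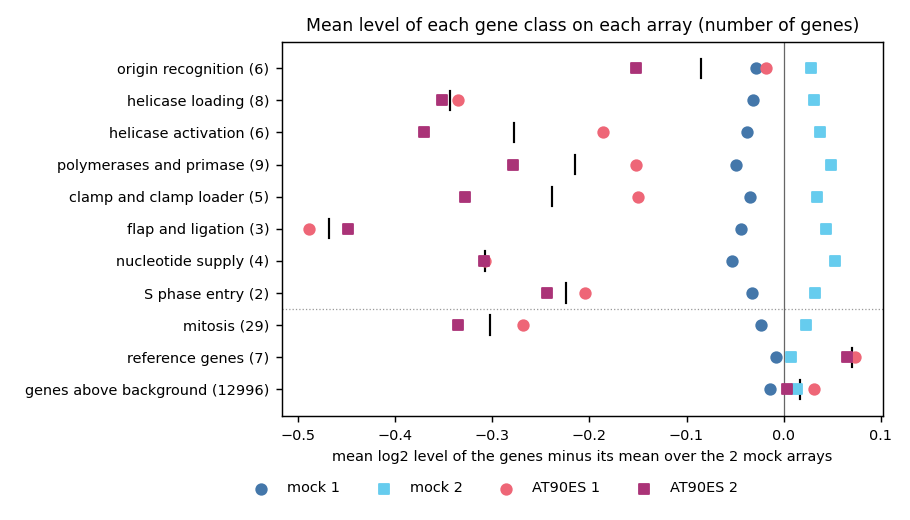
Mean log2 level of the genes of each class on each array, minus its mean over the 2 mock arrays (x axis), with the black bar at the mean of the AT90ES arrays and the number of genes in brackets. Of the 8 replication classes, origin recognition genes lie nearest to mock with -0.08 and flap and ligation genes furthest with -0.47; reference genes lie at 0.07.

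Members also varied together between the arrays of a group. Of the 43 members, 34 were lower on AT90ES replicate 2 than on replicate 1, and 32 were higher on mock replicate 2 than on replicate 1, against 51.4% of all genes in both cases. The mean over all 43 members was 8.57 and 8.65 in mock cells and 8.40 and 8.31 in AT90ES cells. The difference between groups, -0.26 ± 0.06, was thus wider than the distance between replicates in either group. The part of this shared movement in the differences of single genes was not tested. Members with the most closely matched AT90ES replicates, within 0.03, were Cdt1, Mcm3, Mcm5, Mcm7, Pold3, Rfc1 and Tk1.

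Other genes of replication, from lists made with earlier results of these data known, are given by list, and differences between the lists were not tested. At an unadjusted p under 0.05, 4.59% of all genes were lower and 4.5% higher. Of 15 further licensing and firing genes, 0 passed in limma, 7 were lower and 0 higher at that unadjusted p, and the median difference was -0.30. Ticrr, which brings Cdc45 to origins, had the largest at -0.59 ± 0.12, followed by Cdc25a, the phosphatase that activates Cdk2, at -0.52 and the fork protection gene Donson at -0.52. Of 25 measured further fork genes, 0 passed, 8 were lower and 0 higher at an unadjusted p under 0.05, and the median was -0.27. Asf1b and Chaf1a, histone chaperones that act behind the fork, had -0.51 ± 0.12 and -0.59 ± 0.15, and Rpa2, of the single-strand binding protein, had -0.40.

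Of 27 measured further nucleotide genes, 0 passed and the median was -0.08. At an unadjusted p under 0.05, 3 were lower and 3 higher, against 4.59% and 4.5% of all genes. Their differences ran from -0.42 for Ppat, the first step of purine synthesis, to 0.55 for Mthfd2, a mitochondrial folate enzyme. Mthfd2 had log2 levels of 9.52 and 9.44 in mock and 9.97 and 10.08 in AT90ES cells, with both AT90ES arrays higher (adjusted p of 0.296 in limma, and 0.00043 with an intensity trend, with 0.00043 to 0.691 over the alternatives). Dut, which removes dUTP, had -0.39 ± 0.13 on the brighter of its 2 probes. Over the alternatives the difference for Dut lay between -0.48 and -0.19.

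Among 26 genes of E2F control, cyclins and licensing turnover, 1 passed as higher and 0 as lower, against 0.415% and 0% of all genes. At an unadjusted p under 0.05, 8 were lower and 2 higher, against 4.59% and 4.5% of all genes. The gene that passed was Cdkn1a, the p21 inhibitor of cyclin-dependent kinases, which also binds Pcna. Cdkn1a stood at 11.12 and 11.18 in mock and 12.29 and 12.53 in AT90ES cells, and it rose by 1.26 ± 0.13 (adjusted p of 0.0347 in limma). The call was lost without any 1 of the 4 arrays (0.131 to 0.202), with arrays quantile normalized again (0.0564) or centred on the reference genes (0.0523), with every probe tested separately (0.202) and with the crossed replicate block (0.070), and the adjusted p lay between 3.91e-08 and 0.202 over the alternatives. Rb1, the retinoblastoma protein that restrains E2F, had 7.54 and 7.61 against 8.24 and 8.19 on the brighter of its 2 probes. The difference was 0.64 ± 0.12, and it lay between 0.47 and 0.68 over the alternatives. Rb1 had an adjusted p of 0.188 in limma and 0.00298 with an intensity trend, and did not pass in every alternative. Both of its AT90ES arrays were higher. E2f8, a repressor of replication genes that is itself an E2F target, had 8.87 and 8.94 against 8.24 and 8.26, a difference of -0.66 ± 0.11. Its adjusted p was 0.175 in limma, 0.0482 with dim probes left out and 0.00064 with an intensity trend. E2f8 did not pass in every alternative.

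Mitosis genes, which act later in the cell cycle, had a median of -0.30 over 29 measured genes, and 0 passed in limma. Of the 29, 27 were lower in mean, against 54.6% of all genes. Both AT90ES arrays lay under both mock arrays for 93.1% of them, against 81.4% of the replication members and 22.1% of all genes. At an unadjusted p under 0.05, 14 were lower and 0 higher, against 4.59% and 4.5% of all genes. The genes with the smallest p-values were Prc1 at -0.51, Cdca8 at -0.50 and Plk1 at -0.46, all of which act in spindle or cytokinesis. With an intensity trend 12 mitosis genes passed as lower, as did 4 of the further licensing genes and 3 of the further fork genes. Of the further nucleotide genes 2 passed as lower and 1 as higher, and of the E2F control list 4 as lower and 2 as higher. Over all genes 0.73% passed as lower with the trend and 1.94% as higher. The difference between the replication and mitosis lists was not tested. Reference genes had a median of 0.06 over 7 measured genes, with Gapdh at -0.02.

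**Figure D5:**
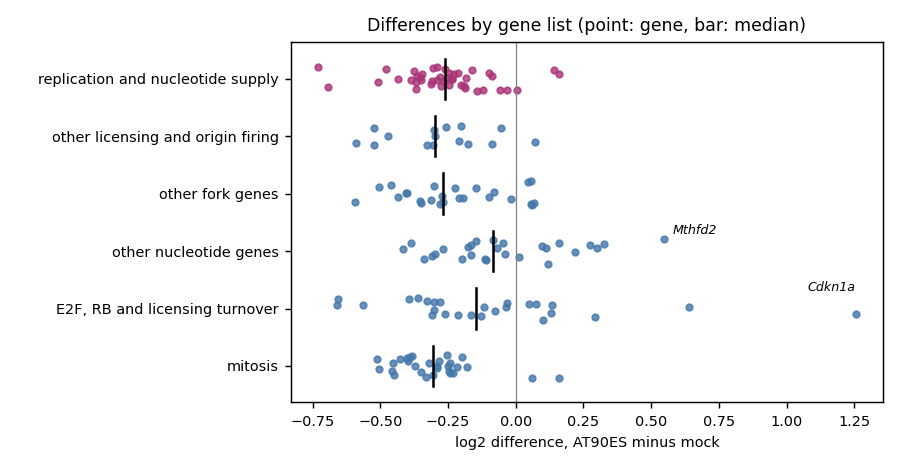
Log2 difference, AT90ES minus mock (x axis), of each gene in the replication list and in 5 related lists, with the median as a black bar. Medians lie between -0.30 and -0.08, and Cdkn1a is the highest point at 1.26.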

How the data were processed

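RNA of 2 mock and 2 AT90ES samples (300 ng each) was measured on Affymetrix arrays. The deposited values were log2 levels of 41345 probes, made by the authors with RMA per the submitters' processing notes, with software, version and build not given in the sources used here. RMA equalises arrays, so differences are relative to other genes. Symbols came from the platform annotation: 23521 probes had 1 symbol, 1814 several and 16010 none, and probes without a single symbol named no gene. All 43 measured members matched a RefSeq gene ID. Groups were compared in limma 3.58.1 under R 4.3.3 (lmFit, eBayes, two-sided, Benjamini-Hochberg over 22180 genes, threshold 0.05, 2 residual and 3.70 prior degrees of freedom), and each adjusted p is from this tool. The code was tested on simulated data. The members, lists and tests were chosen with earlier results of these data known. Per-array values were given for members at an unadjusted p under 0.05 and up to 2 others per class with the highest mean, and for Orc3, Orc5 and Rfc3, chosen after their values were seen. Of other lists, genes that passed and the 3 smallest p-values were named. Array number limits the precision. Alternatives were an intensity trend, a background filter, 3 scalings, probe handling, array omission and a replicate block.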

Additional observations from a re-analysis of the deposited data

How the results depend on the processing

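Members called lower numbered 0 in limma as reported, 9 with an intensity trend and 1 with dim probes left out, and 0 in every other setting; 0 were called higher in any. Over all genes, those called lower numbered 162 with the trend, 6 with dim probes left out and 4 with arrays centred on their median gene, and those called higher 431, 160 and 172. The genes called higher numbered 28 with every probe tested separately and 32 to 47 without each array in turn. The labels state no pairing, so the replicate numbers were not taken as pairs. Same-numbered arrays deviated in opposite directions (r of -0.222 over all genes). With the replicate block 85 genes were higher, and with the crossed pairing, added after seeing the data, 59. Centring on reference genes gave a members' median of -0.33, which was -0.26 as reported and -0.30 to -0.20 without each array. Licensing minus fork and nucleotide was 0.042 as reported, -0.0689 without the recognition subunits, 0.0775 without Cdc6 and 0.0193 without Exo1, the last 2 added after seeing the data. For single members 549 values kept their side of the threshold, 10 newly passed as lower, and 9 changed sign while not passing. The cause of these changes was not tested.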
